A study of Mus musculus with 6 samples.

Results

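The 7 genes described here encode surface proteins of antigen-presenting cells that turn T cell activation up or down. They are Cd80, Cd86, Cd40, Cd83, Icosl, Cd274 and Pdcd1lg2, picked out by gene symbol, with earlier results of these data known, and they are 7 of the 19505 named genes on the array. Each was represented by its probe set with the highest mean. Expression was measured in submandibular glands, one of the paired major salivary glands, of 6 female NOD mice aged 10 weeks, with 1 Clariom S array for each mouse. The groups were 3 Myd88-/- mice (strain NOD.B6-Myd88-/-) and 3 Myd88+/+ mice (strain NOD.B6-Myd88+/+), and both carry the NOD background, in which autoimmune infiltrates form in the salivary glands and pancreas. Myd88 is the adaptor for most Toll-like receptors and for the interleukin-1 receptor family, and the comparison asked how the gland's transcripts differ without it. The labels do not say how the allele was made, whether the mice were littermates, or which cells of the gland were present.

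A T cell needs a signal through its antigen receptor and a further signal from paired surface molecules. CD80 and CD86 give that further signal through CD28 and withhold it through CTLA-4, the inhibitory receptor that binds both of them more tightly. ICOSL binds ICOS on activated and follicular helper T cells and helps B cells to make antibody. CD40 is itself a receptor, not a ligand as the group's working name would have it, and on meeting CD40 ligand from T cells it switches on dendritic cells and B cells. CD83 marks mature dendritic cells and keeps CD86 and MHC class II at the cell surface. PD-L1, encoded by Cd274, and PD-L2, encoded by Pdcd1lg2, bind PD-1 and restrain T cells. In the salivary gland such molecules are carried mainly by infiltrating and resident leukocytes, and ICOSL, CD40 and PD-L1 can also appear on epithelium and endothelium.

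RefSeq promoters of assembly GRCm38.p6 were at hand for 4 of the 7 genes, Cd80, Icosl, Cd274 and Pdcd1lg2. The 250 bases before the start site are printed for Icosl, which had the largest genotype difference among the 7, and for the PD-1 ligand genes, neighbours on chromosome 19 with 0 annotated genes between them whose differences had opposite signs. Capitals mark matches on either strand to the letters of an NF-kB site, searched as GGG, any 5 bases and then CC. No match was found in these windows on either strand to GAAA, any 2 bases and GAAA, the letters read by interferon regulatory factors, or to TTCNNNGAA, the site read by STAT factors, where N is any base. A match is a description and not evidence of a bound site.
Icosl, chr10:78069118-78069367, plus strand: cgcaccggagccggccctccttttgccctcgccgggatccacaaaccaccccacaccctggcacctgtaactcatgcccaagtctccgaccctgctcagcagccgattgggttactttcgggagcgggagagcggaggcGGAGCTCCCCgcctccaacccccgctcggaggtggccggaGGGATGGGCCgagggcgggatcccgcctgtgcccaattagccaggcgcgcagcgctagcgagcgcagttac
Cd274, chr19:29367188-29367437, plus strand: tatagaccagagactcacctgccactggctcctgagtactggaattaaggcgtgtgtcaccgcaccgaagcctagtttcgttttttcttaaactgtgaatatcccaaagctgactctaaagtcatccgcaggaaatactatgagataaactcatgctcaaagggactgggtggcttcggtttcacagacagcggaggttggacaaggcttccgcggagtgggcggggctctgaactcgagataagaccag
Pdcd1lg2, chr19:29410669-29410918, plus strand: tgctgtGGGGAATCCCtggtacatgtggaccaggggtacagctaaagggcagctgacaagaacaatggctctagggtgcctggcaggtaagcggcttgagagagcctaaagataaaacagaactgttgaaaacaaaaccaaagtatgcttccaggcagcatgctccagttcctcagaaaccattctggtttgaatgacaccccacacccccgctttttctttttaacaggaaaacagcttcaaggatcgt
The Icosl window held 2 matches to the NF-kB letters that did not overlap each other, and so did the Cd80 window, which is not printed. The Pdcd1lg2 window held 1 stretch that matches on both strands, and the Cd274 window held none. Such matches are common, since 45.8% of the 32851 RefSeq promoter windows of this length held one, against 2.98% for the interferon regulatory factor letters and 7.02% for the STAT site. The Icosl window was rich in G and C, at 68.8% with 23 CG pairs, against 50.4% and 11 in Cd274 and 48.4% and 3 in Pdcd1lg2. The median over all windows was 52.4% and 6 pairs.

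All 6 arrays had medians between 6.0 and 6.1 on the log2 scale. Myd88 itself gave 7.33, 6.80 and 7.47 in the 3 Myd88-/- mice, against 7.81, 7.86 and 7.53 in the 3 Myd88+/+ mice. These did not overlap, at a log2 difference of -0.53 (limma adjusted p = 0.462). The labels do not say if the probe set covers the deleted exons, so it is no firm check of genotype. Myd88 lies on chromosome 9, as do Birc3, Birc2, Il10ra, Xcr1, Cd3e and Cd3g, named below, and none of the 7 genes. The labels do not say whether sequence linked to Myd88 also differs between the strains, and this was not tested. Over all 22206 tested probe sets limma called 0 at an adjusted p under 0.05 (0%, smallest adjusted p = 0.128), so 0 of the 7 genes were called and none can be said to have changed. At an unadjusted p under 0.05, 2 of the 7 genes passed, both lower in Myd88-/- glands (Icosl and Cd86), and 0 passed higher, where 10.1% of all probe sets passed, with 5.55% lower and 4.5% higher. The same 2 genes were those whose groups did not overlap, both lower, where 15.1% of all probe sets had groups apart, with 7.25% lower and 7.84% higher. Without moderation of the variances, 1 of the 7 genes passed at an unadjusted p under 0.05. The median log2 difference of the 7 genes was 0.00, with 3 lower and 4 higher, against a median of 0.02 over all probe sets, of which 47.5% were lower. Of the 4 higher genes, Cd80 and Pdcd1lg2 were under the background control median of 5.55 on every array, and Cd40 was at 0.00. The split of signs therefore says little about a common direction, and the genes are taken one at a time.

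**Figure D1:**
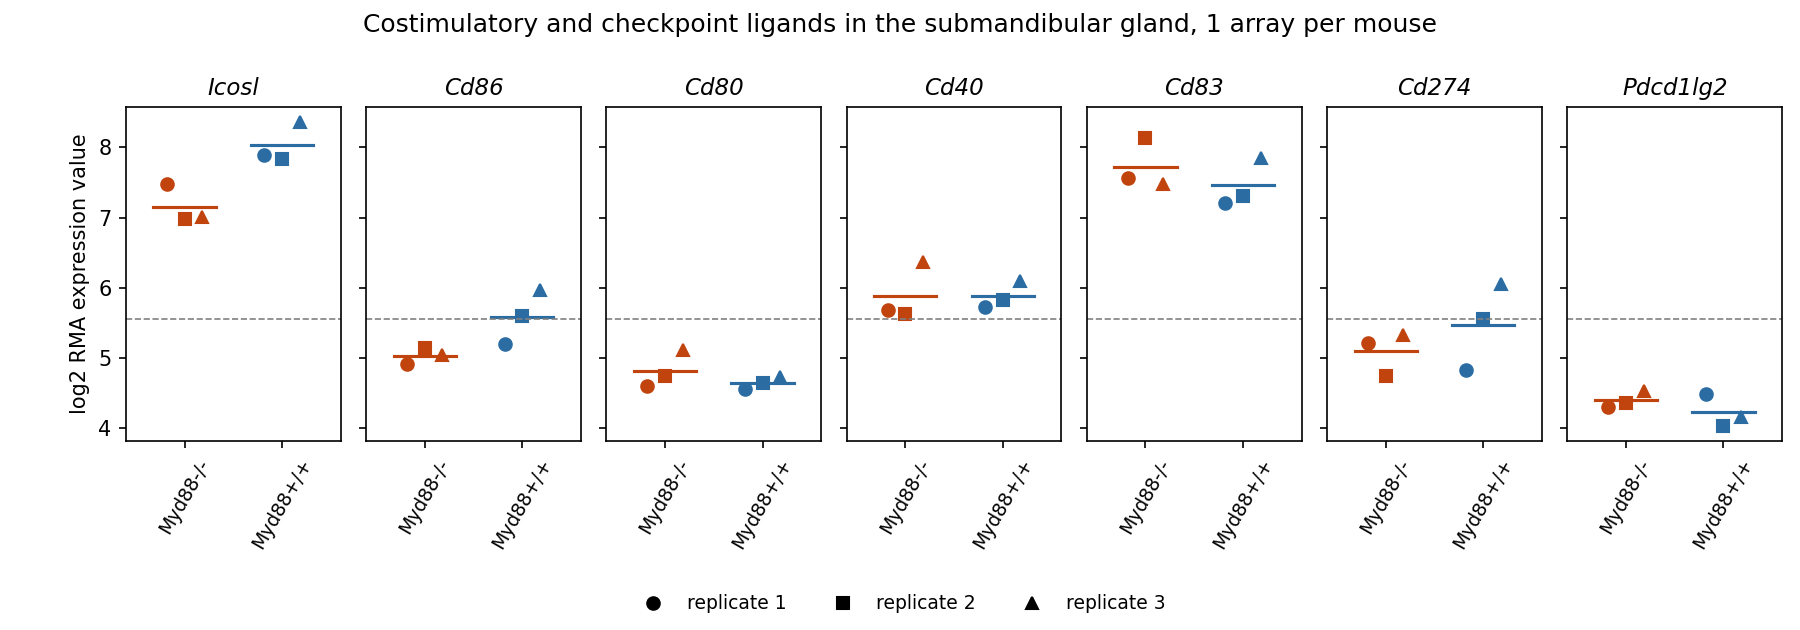
Log2 RMA expression value (vertical axis) of each of the 7 genes in 3 Myd88-/- and 3 Myd88+/+ glands. Each point is 1 mouse, each bar the mean of 3, and the dashed line marks 5.55, the background control median. For Icosl and Cd86 the groups are apart, while Cd80 and Pdcd1lg2 lie under the line on every array. Heights are not comparable between genes, since probe sets differ in response.

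Icosl, the ligand of ICOS, was lower in Myd88-/- glands without passing after adjustment. In bulk tissue fewer cells of a type and less RNA per cell cannot be told apart. It read 7.48, 6.98 and 7.01 in the Myd88-/- glands and 7.90, 7.84 and 8.36 in the Myd88+/+ glands. The highest Myd88-/- gland was below the lowest Myd88+/+ gland, and Myd88+/+ replicate 3 stood above the rest of its group. Its mean was 7.15 ± 0.28 without Myd88, against 8.03 ± 0.28 with it (SD, n = 3 each), so it was 1.84-fold lower, at a log2 difference of -0.88 (95% interval -1.36 to -0.40). Limma gave an unadjusted p of 0.00257 and an adjusted p of 0.345 over all probe sets, and exact permutation of the mice, two-sided, gave 0.1, which is the floor of this design. Only 1.19% of all probe sets had a difference as low. With any single mouse left out, the difference stayed between -1.04 and -0.72. The probe set was above the background control median of 5.55 on all 6 arrays, and 70.6% of the negative control probe sets lay below its Myd88-/- mean and 84.2% below its Myd88+/+ mean.

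Of the ligands of CD28 and CTLA-4, Cd86 was lower in Myd88-/- glands without passing after adjustment, and Cd80 was too dim to be compared. Cd86 read 4.91, 5.14 and 5.05 in Myd88-/- glands and 5.19, 5.60 and 5.97 in Myd88+/+ glands. The groups were apart, but the gap between Myd88-/- replicate 2 and Myd88+/+ replicate 1 was small, and the Myd88+/+ glands were spread widely. The Myd88-/- mean was 5.03 ± 0.12, against 5.59 ± 0.39 for Myd88+/+ (SD, n = 3 each), which is a log2 difference of -0.55 (95% interval -1.04 to -0.07) with a limma adjusted p of 0.457. Without Myd88+/+ replicate 3 the difference was -0.36, and without Myd88+/+ replicate 1 it was -0.75. Only 2 of the 6 arrays, both Myd88+/+, read above the background control median, so the size of the difference is uncertain. At an unadjusted limma p Cd86 passed at 0.0301, and without Myd88+/+ replicate 3 it did not, at 0.122. Nor did it pass without Myd88+/+ replicate 2 (0.0685), Myd88-/- replicate 1 (0.0887) or Myd88-/- replicate 3 (0.0583). Without moderation of the variances its unadjusted p was 0.0768. It did pass without Myd88+/+ replicate 1 or Myd88-/- replicate 2.

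Cd80 read 4.60, 4.74 and 5.11 in Myd88-/- glands and 4.56, 4.64 and 4.73 in Myd88+/+ glands. The groups overlapped, and Myd88-/- replicate 3 was the highest array. The log2 difference was 0.18 (95% interval -0.24 to 0.60, limma adjusted p = 0.776), with 0 of 6 arrays above the background control median, so a difference in Cd80 was not detectable at this signal. Leaving out 1 mouse gave between 0.03 and 0.29. The within-array difference of Cd86 from Cd80 is not reported, since with Cd80 under background it would only restate that of Cd86.

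Cd40 and Cd83, a receptor and a maturation marker of antigen-presenting cells, did not differ between genotypes beyond the spread of the mice. Cd40 read 5.68, 5.62 and 6.36 in Myd88-/- glands and 5.73, 5.83 and 6.10 in Myd88+/+ glands. The Myd88+/+ values lay within the range of the Myd88-/- values, whose replicate 3 was the highest of all. The Myd88-/- mean was 5.89 ± 0.41, against 5.88 ± 0.19 for Myd88+/+ (SD, n = 3 each), which is a difference of 0.00 with a 95% interval from -0.51 to 0.52 (limma adjusted p = 0.998). The sign changed with the scaling, the estimate being -0.02 after quantile normalization and -0.05 after cyclic loess. Cd40 was above the background control median on all 6 arrays. Only 44.9% of negative control probe sets lay below its Myd88-/- mean, and 44.6% below its Myd88+/+ mean. A difference could go undetected at this signal.

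Cd83 read 7.56, 8.13 and 7.48 in Myd88-/- glands and 7.21, 7.31 and 7.85 in Myd88+/+ glands. The groups overlapped because Myd88+/+ replicate 3 exceeded 2 of the 3 Myd88-/- glands. The Myd88-/- mean was 7.72 ± 0.36, against 7.46 ± 0.35 for Myd88+/+ (SD, n = 3 each), which is a log2 difference of 0.26 (95% interval -0.28 to 0.81, limma adjusted p = 0.741). The difference was 0.06 without Myd88-/- replicate 2 and 0.46 without Myd88+/+ replicate 3. A second, dimmer Cd83 probe set had a difference of -0.06 and was above the background control median on 1 array.

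**Figure D2:**
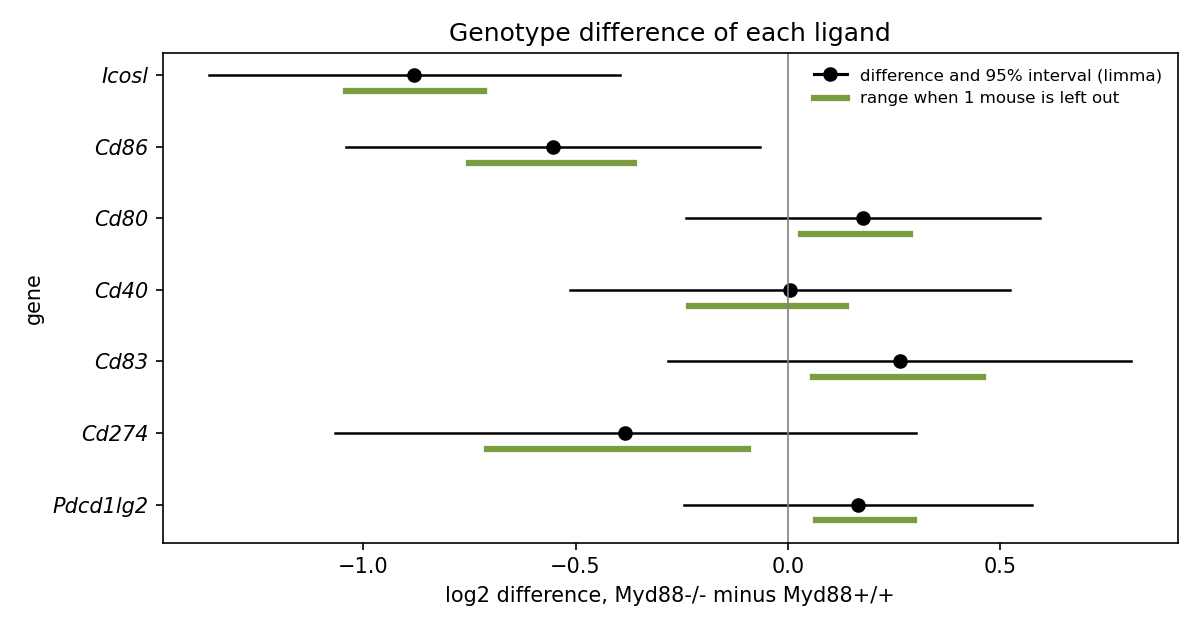
Log2 difference, Myd88-/- minus Myd88+/+ (horizontal axis), of each gene (vertical axis). Points and black lines are limma's estimate with its 95% interval over 3 mice in each group, and green bars span the estimates with 1 mouse left out. The interval lies wholly below 0 for Icosl and Cd86, and that of Cd274 is the widest.

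The PD-1 ligands were mostly under the background control median, Cd274 on 5 of the 6 arrays and Pdcd1lg2 on all 6. Cd274 read 5.21, 4.74 and 5.33 in Myd88-/- glands and 4.82, 5.55 and 6.05 in Myd88+/+ glands. The groups overlapped, since Myd88+/+ replicate 1 was nearly the lowest of all 6 arrays while Myd88+/+ replicate 3 was the highest. The Myd88-/- mean was 5.09 ± 0.31, against 5.48 ± 0.62 for Myd88+/+ (SD, n = 3 each), which is a log2 difference of -0.38 (95% interval -1.07 to 0.30, limma adjusted p = 0.698). The value rested on single mice. It was -0.09 without Myd88+/+ replicate 3 and -0.20 without Myd88-/- replicate 2, and it was -0.71 without Myd88+/+ replicate 1, the gland in which Cd274 was lowest in its group.

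Pdcd1lg2 read 4.31, 4.35 and 4.53 in Myd88-/- glands and 4.49, 4.03 and 4.17 in Myd88+/+ glands. The groups overlapped, and all arrays lay under the background control median. The log2 difference was 0.17 (95% interval -0.24 to 0.58, limma adjusted p = 0.791), and 14.0% of negative control probe sets lay below its Myd88-/- mean and 12.1% below its Myd88+/+ mean. Leaving out 1 mouse gave between 0.07 and 0.30. At this signal the neighbouring genes could not be compared with each other.

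Markers of macrophages, which carry several of the 7 proteins, were also lower in Myd88-/- glands, and the 7 genes were set against them array by array. All 12 measured macrophage markers had negative log2 differences, with a median of -0.95. At an unadjusted p under 0.05, 10 of them passed lower, where 5.55% of all probe sets did, and 0 passed at an adjusted p under 0.05. C1qb and C1qc, complement subunits made by macrophages, had -1.63 and -1.40, and Aif1, an actin-binding protein of macrophages, had -1.22. Csf1r, the receptor for the macrophage growth factor, averaged 8.23 ± 0.24 without Myd88, against 9.46 ± 0.46 with it (SD, n = 3 each). The marker score, the mean over markers of the log2 value minus each marker's own mean, ran from -0.69 to -0.41 in Myd88-/- and from 0.08 to 1.06 in Myd88+/+ glands. The highest score was that of Myd88+/+ replicate 3. With a mouse left out, the median of the macrophage markers ran from -1.21 (without Myd88+/+ replicate 1) to -0.71 (without Myd88+/+ replicate 3). All 12 pan-leukocyte genes were lower too, with a median of -0.72, among them Cd52 at -1.83, Ptprc (CD45) at -1.62, Coro1a at -0.76 and the phosphatase Ptpn6 at -0.71. The median was -0.43 without Myd88+/+ replicate 3. Of these 12, 6 passed at an unadjusted p under 0.05 and 0 after adjustment, with scores from -0.42 to -0.33 in Myd88-/- and from -0.04 to 0.99 in Myd88+/+ glands. The part of these cells in any gene's difference was not tested.

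The mean log2 difference of the 12 macrophage markers was -1.01, so a gene with no difference of its own stands about 1.01 higher relative to them in Myd88-/- glands. Relative to the mean of the macrophage markers on the same array, Icosl differed between genotypes by less than the spread of the mice. It stood at 0.00, -0.51 and -0.20 in Myd88-/- glands and at -0.08, -0.44 and -0.59 in Myd88+/+ glands, which overlapped. The difference of 0.13 is the -0.88 of Icosl set against the -1.01 of the markers. Against the pan-leukocyte genes that difference was -0.11, so its sign depended on the marker list.

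Cd83 stood at 0.09, 0.65 and 0.27 relative to the macrophage markers in Myd88-/- glands, against -0.76, -0.96 and -1.10 in Myd88+/+ glands. The difference was 1.28, of which 1.01 is the markers' own, and the remainder is the 0.26 of Cd83 given above, which did not pass. For Cd40 it was 1.02, about the value of a gene without a difference. Cd86 at 0.46 and Cd274 at 0.63 lay between that value and 0, and both were mostly under the background control median. Cd80 at 1.19 and Pdcd1lg2 at 1.18 were under it on every array. No test is given for these 6 genes or for Icosl, since the markers' difference would decide it.

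**Figure D3:**
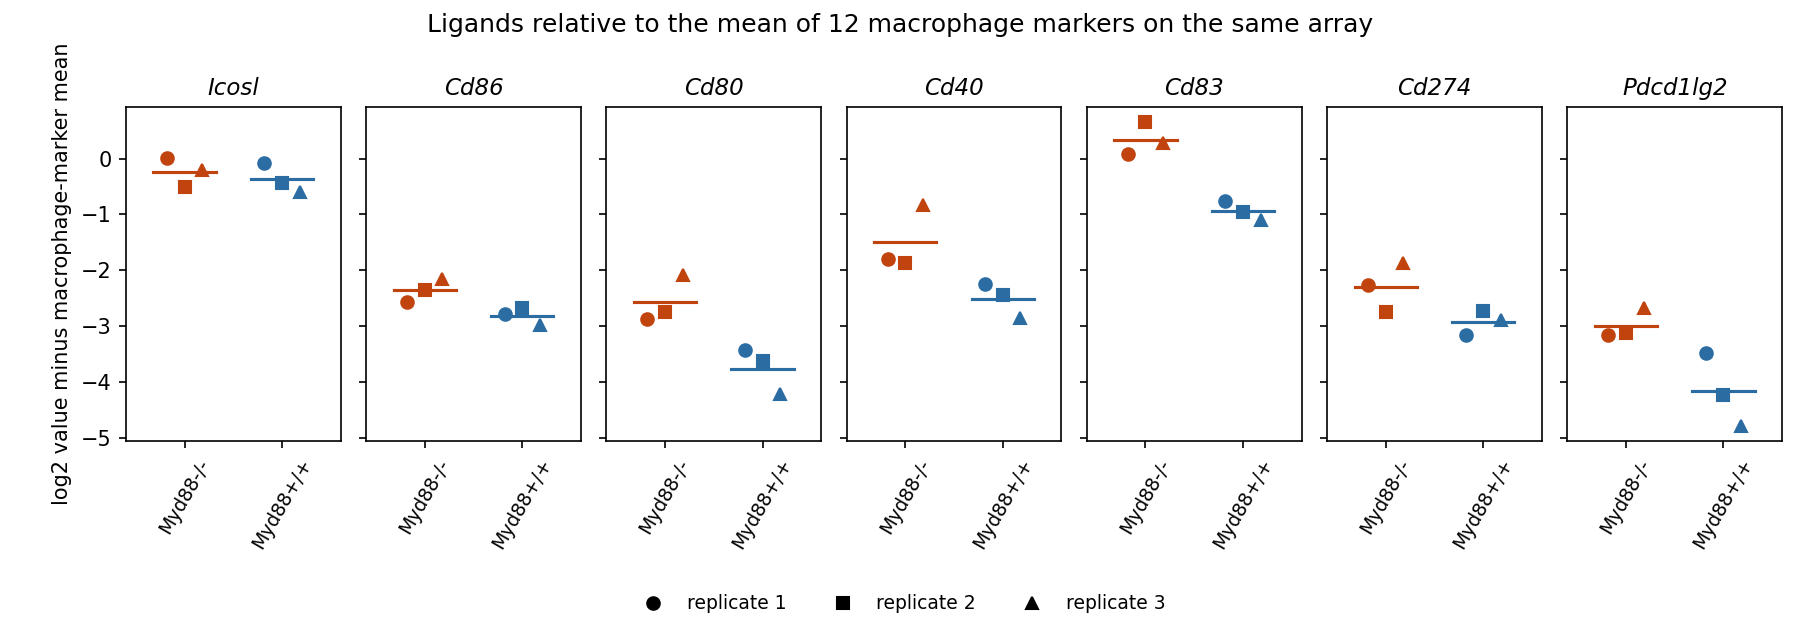
Log2 value of each gene minus the mean log2 value of 12 macrophage markers on the same array (vertical axis) in 3 Myd88-/- and 3 Myd88+/+ glands. Points are mice and bars are means. Icosl values overlap between genotypes, with a mean difference of 0.13, and a gene with no difference of its own would have 1.01, against 1.02 for Cd40 and 1.28 for Cd83.

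Activating and inhibitory receptors on T cells, among them the partners of the 7 proteins, had 0 genes past the test. Of 14 genes listed, 13 were measured, 8 with lower and 5 with higher values in Myd88-/- glands, with a median log2 difference of -0.12 and 0 past an adjusted or an unadjusted p of 0.05. Leaving out Myd88+/+ replicate 3 gave a median of 0.05, leaving out Myd88-/- replicate 2 gave 0.01 and leaving out Myd88+/+ replicate 1 gave -0.25. Both group means were under the background control median in 7 of the 13 genes. Icos, the receptor of ICOSL, averaged 6.60 ± 0.50 without Myd88, against 6.47 ± 0.40 with it (SD, n = 3 each), a difference of 0.13, within the spread of the mice. Cd28 had a difference of 0.02, Ctla4 of -0.41, Cd40lg of -0.12 and Pdcd1, which encodes PD-1, of 0.32. Ctla4 and Cd40lg were under the background control median on all 6 arrays, and Cd28 was above it on 2 and Pdcd1 on 1. Among receptors that bind none of the 7, Tnfrsf4 (OX40) had -0.43 and Lag3, an inhibitory receptor for MHC class II, had -0.21. Tnfrsf4 was above the background control median on 2 arrays and Lag3 on 0.

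Among 16 related ligands and partners of the B7, tumour necrosis factor and nectin families, 9 were lower and 7 higher, with a median of -0.08. At an unadjusted p under 0.05, 2 passed lower and 1 higher, where 5.55% of all probe sets passed lower and 4.5% higher. After adjustment 0 passed. Vsir, which encodes the inhibitory B7 relative VISTA, averaged 5.93 ± 0.34 without Myd88, against 6.64 ± 0.22 with it (SD, n = 3 each), a difference of -0.72 with limma's adjusted p at 0.388. Lgals9, a galectin that binds the checkpoint receptor TIM-3, had -0.58, and Tnfrsf14, the HVEM receptor that engages BTLA, had 0.39. Tnfsf14, the LIGHT cytokine that binds HVEM, had 0.35. In Vsir, Lgals9 and Tnfrsf14 the groups did not overlap, as in 15.1% of all probe sets.

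Downstream of CD40, 11 of 13 listed signalling genes were measured, and 10 were lower in Myd88-/- glands and 1 higher, with a median of -0.29. At an unadjusted p under 0.05, 3 passed lower, where 5.55% of all probe sets did, and 0 passed after adjustment. Birc3 and Birc2, ubiquitin ligases that bind TRAF proteins and hold back the noncanonical NF-kB pathway, had -1.04 and -0.75. The adaptor Traf5 had -0.53, with both group means under the background control median, and Rela, an NF-kB subunit, had -0.36. The median was -0.17 after quantile normalization, -0.20 after cyclic loess, -0.17 without Myd88+/+ replicate 1 and -0.11 without Myd88-/- replicate 3.

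Of 19 listed names of regulators of the 7 genes, 2 of them older spellings of listed MARCH genes, 16 were measured, 12 lower and 4 higher, with a median of -0.23. At an unadjusted p under 0.05, 3 passed lower and 0 higher, where 5.55% of all probe sets passed lower and 4.5% higher. After adjustment 0 passed. Irf1, the factor through which interferon-gamma induces Cd274, averaged 7.43 ± 0.37 without Myd88, against 8.50 ± 0.49 with it (SD, n = 3 each), a difference of -1.07 with limma's adjusted p at 0.361. The kinase Jak2 of the same pathway had -0.98, Stat3 had -0.59 and Il10ra, a chain of the interleukin-10 receptor, had -0.49. The list's median was -0.11 without Myd88-/- replicate 2 and -0.14 without Myd88+/+ replicate 3.

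**Figure D4:**
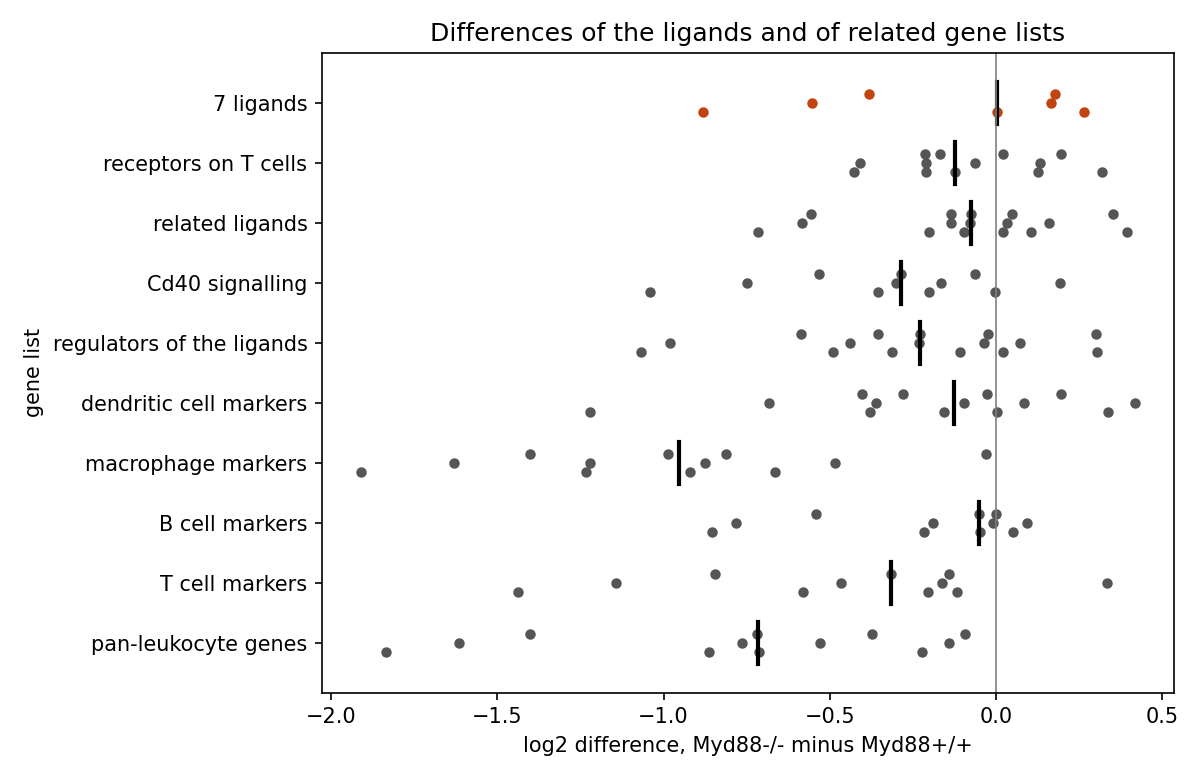
Log2 difference, Myd88-/- minus Myd88+/+ (horizontal axis), for every measured gene of each list (vertical axis), with the list median as a vertical bar and the 7 genes at the top. The 7 genes spread from -0.88 to 0.26 about a median of 0.00, while the macrophage markers centre on -0.95 and the pan-leukocyte genes on -0.72.

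Markers of dendritic cells, B cells and T cells were under background more often than those of macrophages, where both group means were under it for 0 of 12, and 0 of these markers passed after adjustment. At an unadjusted p under 0.05, 3 dendritic cell, 3 B cell and 1 T cell markers passed lower and 0 higher. Of all probe sets, 5.55% passed lower and 4.5% higher. Of 14 dendritic cell markers, 9 were lower and 5 higher, with a median of -0.13 and both group means under background in 9. That median became -0.25 when Myd88+/+ replicate 2 was left out, -0.21 when replicate 1 of that group was and -0.06 when replicate 3 was. Ccl22, a chemokine of mature dendritic cells and macrophages, had -1.22, and Xcr1, a receptor of cross-presenting dendritic cells, had -0.68. Itgax (CD11c) had -0.40 and Cd207 (langerin) had 0.42. Ccl22 was above the background control median on 3 arrays, Xcr1 on 2, and Itgax and Cd207 on 0. Of 11 measured B cell markers, 8 were lower with a median of -0.05 and both group means under background in 6. The median was 0.06 when Myd88+/+ replicate 3 was left out, -0.20 when Myd88+/+ replicate 1 was and -0.19 when Myd88-/- replicate 3 was. Blnk, the linker of B cell receptor signalling, had -0.85, Cd72 -0.78, Fcmr -0.54 and Cd79a, a chain of the B cell receptor, -0.22. Fcmr and Cd79a were under the background control median on all 6 arrays. The 4 genes named had the smallest unadjusted limma p of the list. The 3 higher markers were Cd22 at 0.09, Ms4a1 at 0.05 and Blk at 0.00.

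Of 11 measured T cell markers, 10 were lower, with a median of -0.32 and both group means under background in 6. Cd3e, a chain of the T cell receptor complex, read 5.27, 4.74 and 4.91 in Myd88-/- glands and 5.13, 5.85 and 8.26 in Myd88+/+ glands. The high Cd3e value was that of Myd88+/+ replicate 3, the gland that was also highest of its group in Icosl, Cd86, Cd80, Cd40, Cd83 and Cd274. Cd3g had -1.14, Il7r -0.85 and Cd4 -0.58. The T cell scores overlapped between groups, from -0.32 to -0.17 in Myd88-/- and from -0.21 to 0.74 in Myd88+/+ glands.

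Markers of the gland and of neighbouring tissue were read beside these values. Of 11 acinar and duct markers, 2 were at the ceiling of the scale, 7 were lower and 2 higher, with a median of -0.14 (-0.07 without Myd88+/+ replicate 1 and -0.21 without Myd88+/+ replicate 2). Ascl3, a duct cell factor, had -0.96, Elf5, an epithelial factor, had 0.48 and Krt19 had -0.24. Bpifa2, a secreted salivary protein, read 5.55, 5.78 and 6.38 in Myd88-/- glands and 9.35, 10.07 and 6.27 in Myd88+/+ glands, so that Myd88+/+ replicate 3, high in Icosl, was its lowest Myd88+/+ array. Of 9 endothelial markers 7 were lower, with a median of -0.27 that was 0.03 when Myd88-/- replicate 3 was left out, -0.16 when replicate 1 of that group was and -0.12 when Myd88+/+ replicate 1 was. Eng had -0.87, Pecam1 -0.32, Emcn -0.29 and Cdh5 -0.27. Of 8 lymph node markers 5 were lower, with a median of -0.10, which ran from -0.18 without Myd88-/- replicate 3 to 0.01 without Myd88+/+ replicate 3, and scores from -0.07 to 0.03 in Myd88-/- and from -0.18 to 0.12 in Myd88+/+ glands. Chst4, Ccl21a, Madcam1 and Glycam1, genes of lymph node vessels and stroma, had 0.33, -0.17, -0.14 and -0.17. Both group means were under background in 6 of the 8 lymph node markers. Chst4, Madcam1 and Glycam1 were under it on all 6 arrays, so the list says little about lymph node tissue. In these 3 lists 0 genes passed after adjustment.

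Genes whose profiles lay closest were found for the 3 genes that spanned at least 1 log2 unit over the 6 arrays. Likeness was the root-mean-square difference of log2 profiles, each centred on its own mean, over 6 arrays and 11354 candidate genes above background. Nearest to Icosl were Clec16a, a regulator of mitophagy, at 0.089, Adgre1, the macrophage surface protein F4/80, at 0.111, and the kinase gene Jak2 at 0.121, where the median over candidates was 0.528. Nearest to Cd86 were the proteoglycan gene Sdc3 at 0.074, Rab5c, a GTPase of endosomes, at 0.075 and S100a4, a calcium-binding protein of motile cells, at 0.085, where the median was 0.426. Nearest to Cd274 were Syk, the kinase of leukocyte receptors, at 0.10, Tap2, a subunit of the peptide transporter for MHC class I, at 0.108 and Gsap at 0.116, where the median was 0.521. These are descriptions of 6 arrays, with no test.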

How the data were processed

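Total RNA of 6 submandibular glands was hybridised to Clariom S arrays, 1 per mouse. The deposited values are on the log2 scale; per the labels, the authors computed them by RMA with the Transcriptome Analysis Console software. Its version, the RMA variant and the annotation build were not found in the labels. RMA compresses differences near background, so dim genes can show smaller differences than occurred. Arrays give no counts, and their number limits the precision.

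From these values, 6640 control probe sets of 28846 were left out, which left 22206, of which 19572 had 1 symbol, 0 several and 2634 were unnamed here. All 19572 Entrez identifiers were found in the RefSeq table of GRCm38.p6, used for names, chromosomes and neighbours. The highest-mean probe set stood for each of 19505 genes. Groups came from titles and strain labels. Limma 3.58.1 in R 4.3.3 (lmFit, eBayes, no covariates) compared Myd88-/- with Myd88+/+ over all 22206, with Benjamini-Hochberg adjustment and a call at 0.05, and was tested on simulated data. Single values were compared by two-sided exact permutation, which cannot go below 0.1 here. Background is the median, 5.55, of 23 background control probe sets; 5222 negative control probe sets served as a second gauge.

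The 7 genes and the 12 lists were chosen with earlier results of these data known. Genes named are the 7, Myd88, up to 4 of each list by smallest unadjusted p, the receptors Cd28, Ctla4, Icos, Pdcd1 and Cd40lg, and the 3 nearest profiles of each of the 7 that spans 1 log2 unit; predicted genes and the like were not to be named. Listed genes without a named probe set were not analysed here. Alternatives were quantile normalization, median centring, cyclic loess, dropping the dimmest 30% or 50%, unmoderated variances, array weights, a robust fit with an intensity trend, a replicate block, and each mouse left out.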

Additional observations from a re-analysis of the deposited data

How the results depend on the processing

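None of the 7 genes was called under any of the 15 alternatives that left it in the test, the smallest adjusted p being 0.244 for Icosl after median centring. Without the dimmest 30% of probe sets Cd80 and Pdcd1lg2 were no longer tested, and without the dimmest 50% only Icosl and Cd83 were. Icosl kept its sign in all 15 alternatives, from -1.04 to -0.72, and Cd86 in all 14 that tested it, from -0.75 to -0.36. The count of the 7 genes at an unadjusted p under 0.05, 2 in the analysis above, was 1 without the dimmest 50% and 1 without moderation, and ran from 1 to 3 with a mouse left out. Dropping Myd88+/+ replicate 2 or 3, or Myd88-/- replicate 1 or 3, gave 1, and dropping Myd88+/+ replicate 1 gave 3, since Cd274 then passed too. Cd40, at 0.00, turned to -0.022 after quantile normalization, -0.017 after median centring, -0.048 after cyclic loess and -0.017 with array weights, and ran from -0.23 to 0.14 with a mouse left out. Cd83 turned to -0.061 in its other probe set, and Icosl relative to leukocyte markers to -0.11 with the pan-leukocyte list; the cause was not tested. Calls over all probe sets, 0 above, were 2 after median centring, 4 with an intensity trend and robust variances, and 0 to 5 with a mouse left out (5 when Myd88+/+ replicate 1 was dropped, and 1 when Myd88+/+ replicate 3 or Myd88-/- replicate 2 was). The CD40 signalling list's median of -0.29 was -0.17 after quantile normalization and -0.20 after cyclic loess, and ran from -0.40 to -0.11 with a mouse left out; the related ligands ran from -0.15 to -0.014, the regulators from -0.34 to -0.11 and the endothelial markers from -0.35 to 0.034. No scaling moved the median of all probe sets by over 0.1. The labels do not say whether replicate numbers pair the mice. Deviations of same-numbered mice correlated at -0.11, -0.15 and -0.02 over probe sets, and those of other pairs from -0.12 to 0.20. With 3 mice in each group these values cannot decide it. With the replicate number as a block, Icosl had an adjusted p of 0.523, 0 probe sets were called and 2 of the 7 genes passed at an unadjusted p under 0.05. Signal near background limits Cd80, Cd86, Cd40, Cd274 and Pdcd1lg2, and 3 arrays in each group limit every value.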
